A study of Homo sapiens with 20 samples.

Results

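The sites of CTCF and of the cohesin subunit SMC1A were compared with each other in STAG2-KD M14 cells. M14 is an established human melanoma line. Per the labels of replicate 1, every culture carried a shRNA against STAG2 that doxycycline induces, the WT cultures included. WT cells grew without the drug and STAG2-KD cells with it, for 5 days in replicate 1, while the labels of replicate 2 name the line and the condition without a treatment time. The members were the peaks of 2 CTCF and 2 SMC1A ChIP-seq lists, chosen by antibody and condition, which are 4 of the 16 deposited lists. Each CTCF list was set against the SMC1A list of its own replicate over chromosomes 1 to 22 and X. Peaks that overlapped by at least 1 bp were called shared, and the others CTCF-only or SMC1A-only. A list holds the places where the peak caller found more reads than in input, so a site absent from a list may lie just below its threshold. Both replicates carry 1 shRNA in 1 line, and the shRNA lowers STAG2 without removing its gene. Nothing in the labels says that the libraries came from separate cultures, so the p-values describe only these libraries.

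CTCF is a zinc finger protein that binds a long DNA motif with a direction. Cohesin is a ring built on SMC1A, SMC3 and RAD21 and completed by STAG1 or STAG2. It extrudes chromatin loops and is often halted where it meets CTCF, mostly on the 3′ side of the motif, and it is also found without CTCF at active promoters and enhancers. SMC1A is in the ring with either STAG, so its lists sample cohesin after STAG2 has been lowered.

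The depth recovered from the lists was 21.6 M reads for CTCF and 25.3 M for SMC1A in replicate 1, and 38.5 M and 47.4 M in replicate 2. The replicates were not made or called alike. Replicate 1 was size-selected with beads and its peaks had q-values of at most 0.00999, whereas replicate 2 was size-selected on gels and its lists were limited by p-value, with q-values of up to 0.370. Each value is therefore given for both replicates. As a check of the knockdown, the STAG2 list of replicate 1 held 79048 peaks before and 58418 after doxycycline, and that of replicate 2 held 118984 and 106135. STAG2 sites were fewer after knockdown in both replicates but far from absent.

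A few non-promoter sites of each class show what the classes look like in sequence. They are the strongest of sites that kept their class in both replicates. Those of the first 2 classes had to hold a CTCF core motif within 100 bp of the replicate 1 summit, and the motif is in capitals. All are from hg19 and read 5′ to 3′ on the strand of the motif. The shared sites lie in an intron of GSE1 (chr16:85454493-85454593, + strand), in an intron of SYT8, a synaptotagmin gene (chr11:1853804-1853904, − strand), and 19.3 kb from the start of KCNK18, a potassium channel gene (chr10:118976237-118976337, + strand). The windows are centred on the motif and not on the summit, and only the central match is in capitals. The KCNK18 window holds another match to the core near its 3′ end, left in lower case.
shared GSE1: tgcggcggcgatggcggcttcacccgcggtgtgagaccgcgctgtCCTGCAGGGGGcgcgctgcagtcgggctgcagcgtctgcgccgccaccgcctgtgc
shared SYT8: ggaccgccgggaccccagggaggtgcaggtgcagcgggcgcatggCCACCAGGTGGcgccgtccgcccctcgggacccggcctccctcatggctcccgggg
shared KCNK18: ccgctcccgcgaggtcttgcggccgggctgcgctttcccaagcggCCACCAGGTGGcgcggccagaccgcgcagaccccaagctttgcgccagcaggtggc
The fold enrichment of CTCF over input was 115 and 59.9 at GSE1 (replicates 1 and 2), 114 and 73.9 at SYT8, and 121 and 74.9 near KCNK18. These windows held 15, 10 and 12 CpG dinucleotides.

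The CTCF-only sites lie in an intron of ASIC2, an acid-sensing ion channel gene (chr17:32013353-32013453, − strand), in an exon 6.66 kb from the nearest start of a coding gene, FAM111A (chr11:58903513-58903613, − strand), and between genes, 42.0 kb from BSPH1 (chr19:48453377-48453477, + strand).
CTCF-only ASIC2: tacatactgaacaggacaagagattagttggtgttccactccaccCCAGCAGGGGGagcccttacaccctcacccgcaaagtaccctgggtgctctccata
CTCF-only FAM111A: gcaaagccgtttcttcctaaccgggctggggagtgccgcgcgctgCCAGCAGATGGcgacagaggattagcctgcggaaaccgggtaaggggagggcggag
CTCF-only BSPH1: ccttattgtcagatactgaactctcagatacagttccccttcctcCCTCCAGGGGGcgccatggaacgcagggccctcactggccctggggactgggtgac
CTCF fold was 38.8 and 29.6 at ASIC2, 37.8 and 23.2 at the FAM111A site, and 45.9 and 6.72 at the BSPH1 site. The replicate 2 summit of the BSPH1 site lay at −146 bp from the motif centre, against 11 bp in replicate 1. The 3 CTCF-only examples are weaker than the shared ones, with 1, 9 and 2 CpG. Stronger sites without a core motif were passed over to reach them: 15, 16 and 34 for these 3, against 7, 7 and 8 for the shared sites.

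The SMC1A-only windows are centred on the SMC1A summit of replicate 1 and given on the + strand. The strongest 3 lie in an intron of ENSG00000282278 (chr4:54772203-54772303), 54.9 kb from the start of PSEN2, which encodes presenilin 2 (chr1:227002924-227003024), and in an intron of the receptor tyrosine kinase gene ALK (chr2:29516850-29516950). No CTCF core motif or AP-1 motif is in these bases.
SMC1A-only ENSG00000282278: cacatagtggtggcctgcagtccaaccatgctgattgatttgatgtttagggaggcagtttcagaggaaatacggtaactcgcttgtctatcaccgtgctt
SMC1A-only PSEN2: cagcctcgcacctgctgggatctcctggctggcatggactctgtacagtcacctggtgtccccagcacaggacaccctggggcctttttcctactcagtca
SMC1A-only ALK: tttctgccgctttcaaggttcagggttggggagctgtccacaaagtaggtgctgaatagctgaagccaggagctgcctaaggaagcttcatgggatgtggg
SMC1A fold was 17.7 and 14.8 at the first, 15.7 and 11.9 near PSEN2, and 17.4 and 15.9 in ALK. AP-1 motifs (TGANTCA, the binding site of FOS and JUN proteins) were frequent in this class, as given below, so the strongest 3 SMC1A-only sites with one are also shown, with the motif in capitals. This second set was chosen after the motif shares were seen, and 12, 17 and 21 stronger sites without the motif were passed over to reach them. The sites lie in an intron of TXN2, a mitochondrial thioredoxin gene (chr22:36864198-36864298), between genes near CEP126 (chr11:101882000-101882100), and in an intron of a transcript whose nearest coding start is that of TBL1XR1, a corepressor subunit gene (chr3:177063582-177063682).
SMC1A-only TXN2: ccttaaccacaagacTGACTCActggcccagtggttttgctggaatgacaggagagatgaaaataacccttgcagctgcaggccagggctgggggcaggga
SMC1A-only CEP126: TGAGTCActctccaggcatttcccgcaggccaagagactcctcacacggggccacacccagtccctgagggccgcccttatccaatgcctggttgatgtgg
SMC1A-only TBL1XR1: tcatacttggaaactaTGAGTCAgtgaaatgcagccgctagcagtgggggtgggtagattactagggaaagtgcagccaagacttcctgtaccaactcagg
SMC1A fold at these 3 was 15.1 and 13.0, 14.7 and 10.5, and 12.3 and 9.19.

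The first question was how far the sites of CTCF and cohesin coincided after STAG2 KD. Most CTCF sites held an SMC1A peak in both replicates. Of 88575 CTCF peaks in replicate 1, 57895 (65.4%) were shared, and of 115435 in replicate 2, 81444 (70.6%), a mean of 68.0% ± 3.67 (SD, n = 2). Of 91489 SMC1A peaks in replicate 1, 58560 (64.0%) held a CTCF peak, and of 150282 in replicate 2, 81227 (54.0%), a mean of 59.0% ± 7.04 (SD, n = 2). This left 30680 and 33991 CTCF-only sites, and 32929 and 69055 SMC1A-only sites. The CTCF-only number was similar in both replicates, whereas the SMC1A-only number differed more than any other class. The shared sites were mostly simple pairs, since 96.3% and 94.5% of shared CTCF peaks overlapped 1 SMC1A peak.

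SMC1A peaks were not clearly more numerous than CTCF peaks. The log2 ratio of SMC1A to CTCF peak number was 0.05 in replicate 1 and 0.38 in replicate 2, a mean of 0.21 ± 0.24 (SD, n = 2). A two-sided exact permutation over libraries, 2 against 2, had p = 0.667. It cannot go below 0.333 with 2 libraries a group and cannot reach 0.05. With −log10 q-values of at least 5 in every list the ratio turned to −0.14, so its sign depends on the threshold.

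Sharing rose steeply with peak strength, measured as the percentile of a peak's −log10 p-value in its own list. Among the strongest 50% of CTCF peaks, 93.9% and 94.6% held SMC1A (mean 94.2% ± 0.458, SD, n = 2), against 36.9% and 46.5% of the weakest 50% (41.7% ± 6.80). For SMC1A peaks, 90.7% and 80.1% of the strongest 50% held CTCF (85.4% ± 7.51), against 37.3% and 28.0% of the weakest (32.6% ± 6.56). The difference between strong and weak peaks was larger than the spread between replicates for both proteins. At the strongest 10% the unshared sites all but ran out: 2 and 0 CTCF-only sites and 0 and 1 SMC1A-only sites remained there. The CTCF-only pair of replicate 1 lay at the promoter of TRRAP, a cofactor of histone acetyltransferases (CTCF fold 97.4), and 13.8 kb from the start of IMPDH1, an enzyme of guanine nucleotide synthesis (83.1), and the SMC1A-only site of replicate 2 at the promoter of TBL1X. TRRAP and IMPDH1 were named after their values were seen.

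**Figure D1:**
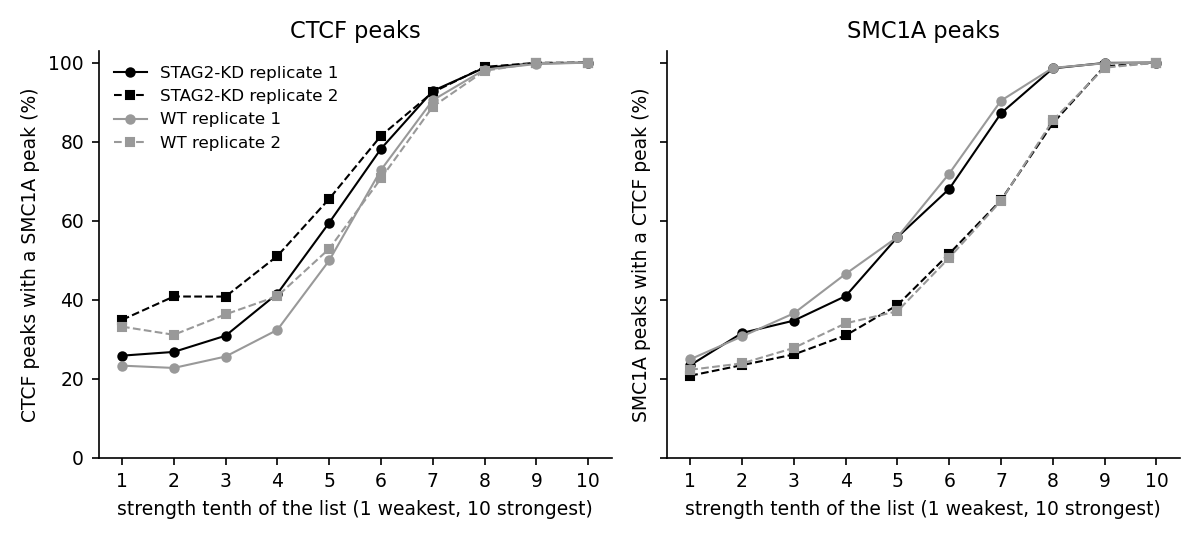
Percent of CTCF peaks with an SMC1A peak (left) and of SMC1A peaks with a CTCF peak (right) on the y axis. The x axis holds 10 bins of peak strength percentile, from weakest to strongest. Each bin is 10 points wide, and peak numbers per bin differ through ties. Lines are black for STAG2-KD and grey for WT, with circles for replicate 1 and squares for replicate 2. In STAG2-KD the CTCF lines reach 92.8% and 92.5% in the seventh bin, where the SMC1A lines reach 87.2% and 65.2%.

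The rise was earlier for CTCF than for SMC1A in replicate 2, where the CTCF share was higher in each of the 10 bins. In replicate 1 the order changed along the list: in the second bin 26.8% of CTCF and 31.6% of SMC1A peaks were shared, in the fourth 41.6% and 40.9%, and in the sixth 78.2% and 68.0%. In the weakest bin of 10, 25.9% and 34.9% of CTCF peaks and 23.4% and 20.8% of SMC1A peaks were shared. In the eighth bin SMC1A reached 98.5% and 84.7%, and in the ninth 99.9% and 99.1%. The highest-ranked CTCF-only sites stood at the 95.8th percentile in replicate 1, as peak 3715 of its list, and at the 86.3rd in replicate 2. The highest-ranked SMC1A-only sites stood at percentiles 86.9 and 91.5.

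Unshared sites were weaker and narrower throughout. The median percentile was 67.1 and 64.4 for shared CTCF peaks and 23.6 and 23.7 for CTCF-only sites, a difference of 42.1 ± 1.95 points (SD, n = 2). For SMC1A it was 67.7 and 71.8 against 24.8 and 30.0, a difference of 42.4 ± 0.797. Median CTCF fold was 32.2 and 14.7 at shared and 6.12 and 3.82 at CTCF-only sites. Median SMC1A fold was 11.3 and 6.69 at shared and 4.71 and 3.08 at SMC1A-only sites. Peak width followed: shared CTCF peaks had a median of 609 and 807 bp and CTCF-only sites 195 and 282 bp, and a narrow interval also has less room to overlap another.

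The strengths of the 2 proteins moved together at shared sites. The Spearman correlation of their percentiles across shared CTCF peaks was 0.813 in replicate 1 and 0.748 in replicate 2, over 57895 and 81444 peaks that are not independent and whose strength was measured with the same input and the same local DNA. The SMC1A peak at the strongest 10% of CTCF peaks had a median percentile of 93.5 and 95.1, against 40.7 and 51.5 at the weakest 50%.

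Unshared sites were mostly not near misses of a wider rule. The nearest SMC1A summit lay a median of 9.01 and 6.61 kb from a CTCF-only summit, with 13.3% and 12.8% within 1 kb. SMC1A-only summits were closer to CTCF, at a median of 3.53 and 3.33 kb, with 23.1% and 15.0% within 1 kb.

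The position of SMC1A relative to CTCF was measured as the distance between their summits at shared sites. The median distance was 19 bp in replicate 1 and 51 bp in replicate 2 (mean 35 ± 22.6, SD, n = 2), with interquartile ranges of 8 to 39 and 20 to 110 bp. Summits lay within 50 bp of each other at 81.2% and 49.6% of sites, and more than 200 bp apart at 5.32% and 12.7%. The replicates thus differed in resolution, but the order within each was the same: the distance was 11 and 26 bp at the strongest 10% of CTCF peaks and 45 and 106 bp at the weakest 50%. Promoter sites had wider distances (29.5 and 79 bp) than the other shared sites (17 and 45 bp), and sites with a core motif shorter ones (15 and 34 bp) than those without (21 and 57 bp).

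Along the direction of the motif SMC1A showed almost no displacement from CTCF. At 14624 and 16151 shared sites with a core motif, the median SMC1A summit lay 0 and 3 bp to the 3′ side of the CTCF summit (mean 1.5 ± 2.12, SD, n = 2), a difference within the spread between replicates. It was 3′ at 49.3% and 52.6% of sites and 5′ at 48.6% and 46.2%. The STAG subunits measured at the same motifs in the same cells did show a displacement. The STAG1 summit lay 16 and 15 bp to the 3′ side of the CTCF summit (n = 13877 and 14810 sites), 3′ at 78.4% and 62.3%, and the STAG2 summit 12 and 11 bp (n = 12232 and 14387), 3′ at 71.0% and 60.1%. In WT the SMC1A displacement was −1 and 4 bp, so both conditions sat around 0.

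**Figure D2:**
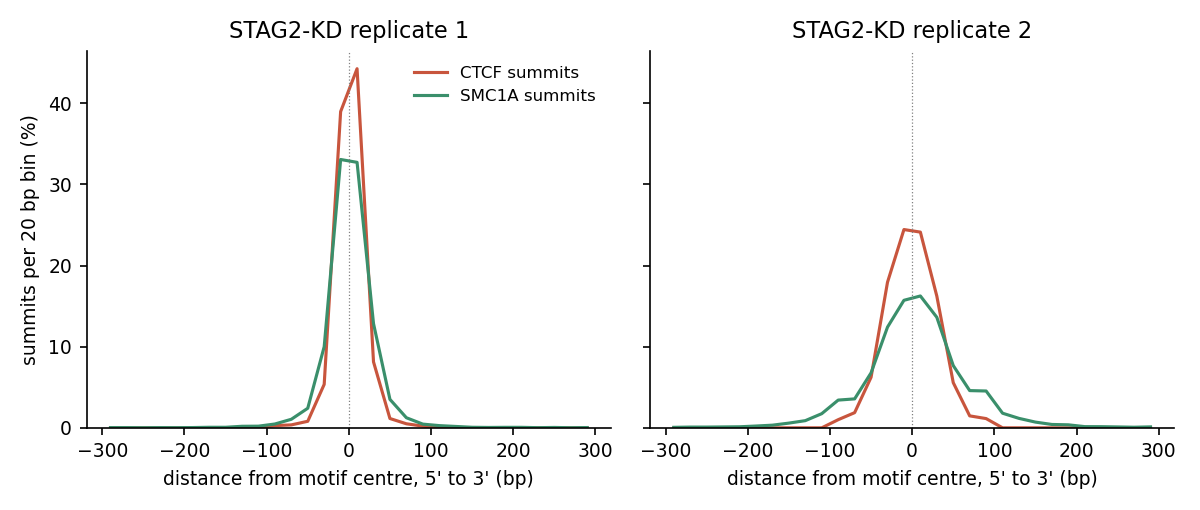
Distance of the CTCF and SMC1A summits from the centre of the CTCF core motif in bp, read 5′ to 3′ along the motif (x axis), against the percent of summits per 20 bp bin (y axis), at shared sites with a motif in STAG2-KD, a panel for each replicate. Both proteins peak at the motif, with SMC1A medians of 1 and 3 bp and CTCF medians of 1 and −2 bp, and the SMC1A curve is the broader in both replicates.

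The next question was where in the genome the classes lay. Promoters, taken as 1 kb around any transcript start, made up 7.52% of the genome and held 26.3% and 26.0% of shared sites, a mean of 26.1% ± 0.250 (SD, n = 2). They held 18.8% and 12.4% of CTCF-only sites (15.6% ± 4.50) and 36.7% and 19.8% of SMC1A-only sites (28.2% ± 11.9). CTCF-only sites were the least promoter-bound class in both replicates. The order of shared and SMC1A-only sites changed between replicates and cannot be given.

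**Figure D3:**
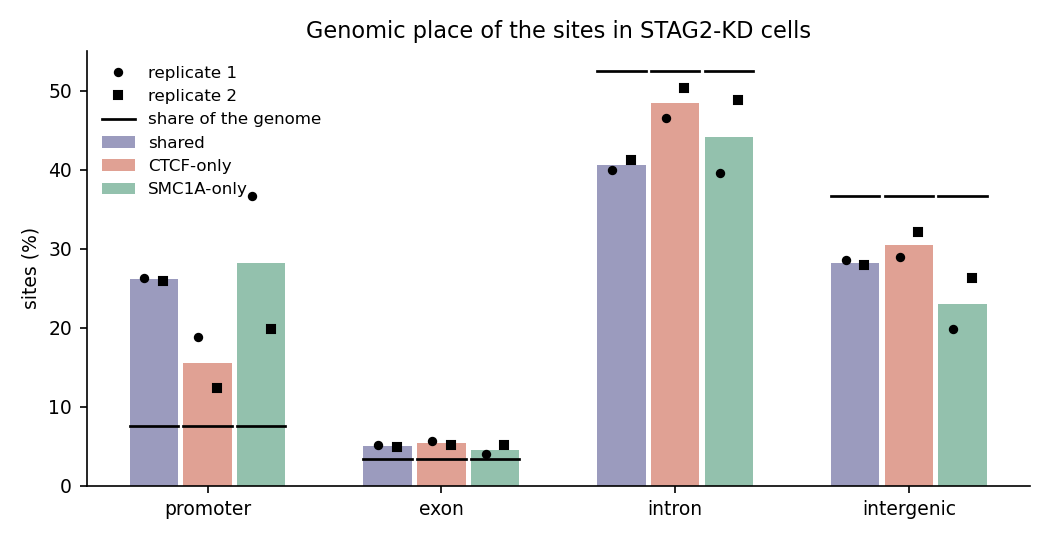
Percent of shared, CTCF-only and SMC1A-only sites in promoters, exons, introns and between genes in STAG2-KD (y axis), with bars for the mean of 2 replicates, circles and squares for replicates 1 and 2, and black lines for the share of the genome. Promoters took 26.3% and 26.0% of shared sites against 7.52% of the genome, and the replicates lie far apart for SMC1A-only sites (36.7% and 19.8%).

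Away from promoters, exons took 4.02% to 5.70% of each class against 3.37% of the genome. Introns took 40.0% and 41.2% of shared, 46.6% and 50.3% of CTCF-only, and 39.5% and 48.9% of SMC1A-only sites, all below the 52.4% of the genome. Intergenic sites were 28.6% and 27.9%, 28.9% and 32.1%, and 19.8% and 26.2%, against 36.7% of the genome. SMC1A-only sites were the least intergenic class in both replicates. The median distance to a transcript start was 5.41 and 5.62 kb for shared and 7.09 and 9.28 kb for CTCF-only sites.

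Promoter place and strength were joined in a way that differed within the CTCF list. In the weakest bin of 10, 64.0% and 48.8% of the shared CTCF peaks lay at promoters, against 21.2% and 13.0% of the CTCF-only peaks of the same bin. In the seventh bin the shares were 19.8% and 20.8% for shared peaks and 22.1% and 15.8% for CTCF-only peaks. Weak shared CTCF peaks were thus promoter peaks more often than strong ones. Among SMC1A-only sites of the 8 lower bins the promoter share was 33.7% to 54.5% (replicate 1) and 18.1% to 23.9% (replicate 2).

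Across chromosomes the ratio of SMC1A to CTCF peaks was 0.839 to 1.14 (replicate 1) and 1.13 to 1.42 (replicate 2), and was lowest on the X chromosome in both. There 75.2% and 61.0% of SMC1A peaks held CTCF, the highest share of any chromosome in both replicates.

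The STAG lists of the same cells were then laid over the classes. STAG1 peaks marked 90.8% and 85.5% of shared sites (mean 88.2% ± 3.76, SD, n = 2), 34.2% and 24.2% of CTCF-only sites (29.2% ± 7.10) and 36.3% and 25.2% of SMC1A-only sites (30.7% ± 7.85). STAG2 peaks that remained after knockdown marked 77.0% and 85.0%, 11.5% and 19.5%, and 21.6% and 35.2%. Sites with neither STAG were rare among shared sites (7.87% and 9.03%) and common among CTCF-only (64.8% and 69.7%) and SMC1A-only sites (58.5% and 58.6%). The shared class thus stood apart from both unshared classes by far more than the spread between replicates.

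Part of that gap went with strength. Among sites in the strongest 50% of their list, 1.66% and 2.45% of shared, 42.0% and 51.7% of CTCF-only and 17.6% and 16.5% of SMC1A-only sites had neither STAG. Strong SMC1A-only sites held STAG1 at 76.0% and 62.9% and STAG2 at 58.0% and 76.9%, while strong CTCF-only sites held STAG1 at 56.8% and 41.0% and STAG2 at 27.5% and 34.5%. So a portion of the strong CTCF-only sites carried a STAG peak without an SMC1A peak in the list. STAG1 without STAG2 was found at 15.1% and 5.99% of shared, 23.7% and 10.8% of CTCF-only and 19.9% and 6.17% of SMC1A-only sites, higher in replicate 1 in every class.

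**Figure D4:**
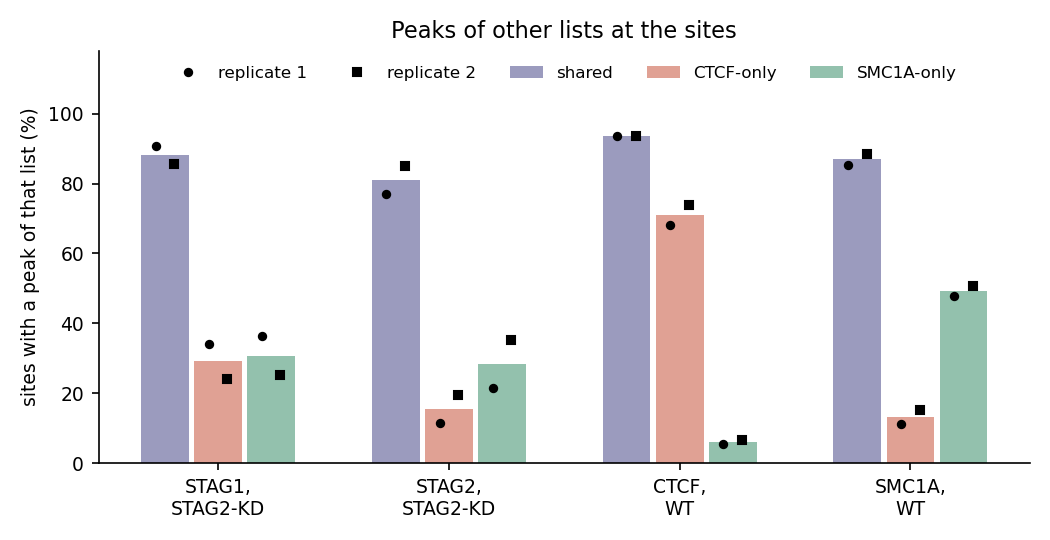
Percent of shared, CTCF-only and SMC1A-only sites of STAG2-KD that overlap a peak of the STAG1 and STAG2 lists in STAG2-KD and of the CTCF and SMC1A lists in WT (y axis), with bars for the mean of 2 replicates and circles and squares for replicates 1 and 2. Shared sites stand at 90.8% and 85.5% for STAG1, against 34.2% and 24.2% (CTCF-only) and 36.3% and 25.2% (SMC1A-only).

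The classes were also present in WT to different degrees. WT CTCF peaks lay at 93.7% of shared sites in both replicates, at 68.3% and 73.8% of CTCF-only sites and at 5.61% and 6.58% of SMC1A-only sites. WT SMC1A peaks lay at 85.4% and 88.4% of shared sites (86.9% ± 2.12, SD, n = 2), 11.3% and 15.1% of CTCF-only sites (13.2% ± 2.72) and 47.9% and 50.8% of SMC1A-only sites (49.4% ± 2.04). In the strongest 50%, WT CTCF was at 99.9% and 99.8% of CTCF-only sites and WT SMC1A at 86.6% and 86.2% of SMC1A-only sites. The strong unshared sites were therefore mostly bound by the same protein in WT, whereas 32.6% and 31.9% of the strong CTCF-only sites also had an SMC1A peak in WT.

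Whether the coincidence of CTCF and SMC1A differed between STAG2-KD and WT was tested over libraries. The share of CTCF peaks with SMC1A was 61.5% and 65.2% in WT (mean 63.3% ± 2.62, SD, n = 2) and 65.4% and 70.6% in STAG2-KD, an increase of 3.87 and 5.36 points (4.62 ± 1.05). Both STAG2-KD libraries lay above both WT libraries, and a two-sided exact permutation over libraries had p = 0.333, the smallest it can give. With lists of equal length the increase was 2.84 points and the libraries no longer separated (exact permutation p = 0.667). The share of SMC1A peaks with CTCF was 65.4% and 54.5% in WT and 64.0% and 54.0% in STAG2-KD, a difference of −1.44 and −0.476 points (−0.957 ± 0.680, exact permutation p = 0.667). With lists of equal length this difference turned to 2.08 points. With −log10 q-values of at least 5 it was −3.53 and −3.48 points (exact permutation p = 0.333), so its size and sign depend on the lists used. The median summit distance differed by a mean of −4 ± 2.83 bp (−2 and −6 bp; exact permutation p = 0.667). None of the 3 tests can reach 0.05 with 2 libraries a condition, so the direction of either share is a description of these libraries.

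The classes were next compared in sequence. The CTCF core motif lay within 100 bp of the summit at 25.3% and 19.8% of shared sites and 11.8% and 8.34% of CTCF-only sites, against 0.645% to 0.778% of windows placed 5 kb away. SMC1A-only sites held it at 0.972% and 0.692%, against 0.763% and 0.740% in their own background. In the strongest 50% the shares were 31.1% and 26.2% of shared, 17.1% and 12.6% of CTCF-only and 0.848% and 0.502% of SMC1A-only sites. The core is short and strict, so it misses CTCF sites that a longer matrix would find.

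AP-1 motifs (TGANTCA) marked the other unshared class. They were found at 19.1% and 17.7% of SMC1A-only sites (mean 18.4% ± 1.00, SD, n = 2), which is 3.18 and 2.89 times the share in the windows 5 kb away (6.02% and 6.13%). At shared sites they were at 5.85% and 6.55% and at CTCF-only sites at 6.27% in both replicates, near their backgrounds of 5.92% to 6.27%. Among SMC1A-only sites the share was 25.4% and 19.4% away from promoters and 8.26% and 10.8% at promoters. The TXN2, CEP126 and TBL1XR1 windows above are examples of such sites, with a motif up to 50 bases from the SMC1A summit.

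**Figure D5:**
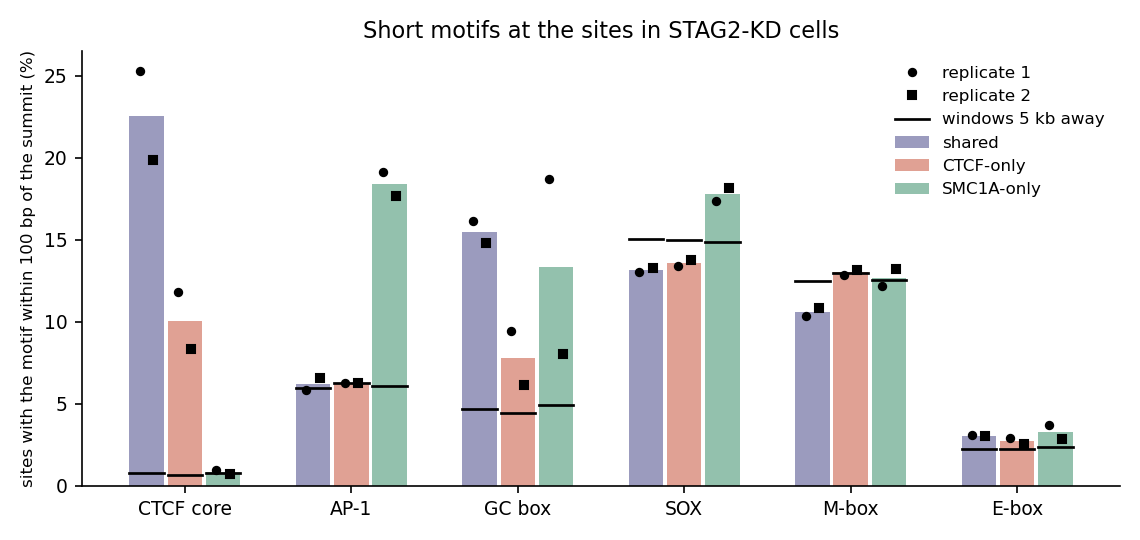
Percent of shared, CTCF-only and SMC1A-only sites of STAG2-KD with a motif within 100 bp of the summit (y axis), with bars for the mean of 2 replicates, circles and squares for replicates 1 and 2, and black lines for windows 5 kb away. The CTCF core stands at 25.3% and 19.8% of shared and 0.972% and 0.692% of SMC1A-only sites, and AP-1 at 19.1% and 17.7% of SMC1A-only against 5.85% and 6.55% of shared sites.

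The GC box (GGGCGG, bound by SP family factors) followed promoters. It was at 16.1% and 14.8% of shared, 9.46% and 6.16% of CTCF-only and 18.7% and 8.04% of SMC1A-only sites, against 4.15% to 5.11% in the background. At promoter sites alone it was at 40.9% and 38.5% of shared, 25.2% and 16.7% of CTCF-only and 39.4% and 21.7% of SMC1A-only sites. The SOX motif (ACAAAG), of interest because SOX10 directs the melanocyte lineage, was at 17.4% and 18.1% of SMC1A-only sites, above the 14.9% and 14.8% of their background, and at 13.0% to 13.8% of the other classes, below their background of 15.0% to 15.1%. The M-box core (CATGTG, bound by MITF) was at 12.2% and 13.2% of SMC1A-only sites against 12.4% and 12.7% in their background. Away from promoters the M-box was at 14.9% and 14.1% of SMC1A-only sites, and at promoters at 7.50% and 9.47%. Among shared sites the M-box was at 10.3% and 10.9% against 12.6% and 12.4%, and away from promoters at 11.9% and 12.4%. CTCF-only sites away from promoters held it at 13.7% and 13.4%. The backgrounds of these motifs were not split by place. The E-box (CACGTG) was at 3.07% and 3.01% of shared, 2.92% and 2.57% of CTCF-only and 3.70% and 2.87% of SMC1A-only sites, against 2.34% and 2.35% in the background of the last.

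The rarer ETS motif was at 0.530% and 0.529% of shared sites (background 0.147% in both replicates) and 0.947% and 0.410% of SMC1A-only sites (0.143% and 0.126%). Among SMC1A-only sites ETS was at 2.27% and 1.37% at promoters and 0.182% and 0.173% elsewhere. Among shared sites ETS was at 1.40% and 1.52% at promoters and 0.218% and 0.182% elsewhere. The cyclic AMP response element (CRE) was at 0.219% and 0.221% of shared sites (background 0.102% and 0.0946%). Among shared sites CRE was at 0.538% and 0.568% at promoters and 0.105% and 0.0995% elsewhere. At SMC1A-only sites CRE was at 0.374% and 0.211% (0.106% and 0.0768%), with 0.828% and 0.570% at promoters and 0.110% and 0.123% elsewhere. All motifs were searched on both strands by fixed patterns, and a match does not show that a factor is bound. Base composition differed too. The bases within 100 bp of the summit were 51.9% and 51.5% GC at shared and 50.5% and 47.4% at CTCF-only sites. At SMC1A-only sites they were 52.6% and 47.3% GC. The windows 5 kb away had 43.4% to 44.9% GC, so they were not matched in composition.

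Class membership depended on which replicate it was read from. Of the shared CTCF peaks of replicate 1, 97.5% were shared in replicate 2. In the other direction, 65.8% of the shared CTCF peaks of replicate 2 were shared in replicate 1, 16.7% were CTCF-only and 17.5% had no CTCF peak there. Of its CTCF-only sites, 52.2% were shared in replicate 2, 43.0% were CTCF-only and 4.85% had no CTCF peak. Of its SMC1A-only sites, 41.3% were shared in replicate 2 and 55.9% SMC1A-only. Of the SMC1A-only sites of replicate 2, 76.1% had no SMC1A peak in replicate 1. In all, 53390 shared, 13099 CTCF-only and 16307 SMC1A-only sites kept their class in both replicates. These had the core motif at 26.2%, 11.8% and 0.613% and lay at promoters at 24.3%, 13.7% and 23.4%, so the order of the classes in motif content remained.

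The strongest sites that kept their class were named by rule, 8 at promoters and 8 elsewhere for each class. The shared promoter sites were those of LINGO1, PLB1, ENSG00000289367, NOTUM, ZNF385A, RAPGEF1, ARHGAP22 and FSIP2. At LINGO1, which encodes a leucine-rich repeat protein of neurons, CTCF fold was 119 and 68.4 and SMC1A fold 93.3 and 47.4, with summits 6 and 28 bp apart. At NOTUM, an enzyme that inactivates Wnt proteins, CTCF fold was 114 and 66.1 and SMC1A fold 86.1 and 48.7. At RAPGEF1, an exchange factor for the GTPase Rap, CTCF fold was 121 and 63.3 and SMC1A fold 94.2 and 43.5. All 8 lay above the 99.8th percentile of the CTCF lists in both replicates and carried STAG1 and STAG2 peaks in both.

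The shared sites away from promoters lay in or nearest to KCTD15, CYP2W1, TMEM45B, CFAP100, PTGIS, GPR132, GCM1 and GSE1. At KCTD15, CTCF fold was 117 and 84.5 and SMC1A fold 105 and 66.5. Near PTGIS, the gene of prostacyclin synthase, CTCF fold was 109 and 55.6 and SMC1A fold 89.6 and 42.7. Over these 8 sites CTCF fold was 100.4 to 123 (replicate 1) and 55.6 to 85.1 (replicate 2), and all 8 also held all 4 proteins.

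The CTCF-only promoter sites were those of TRAV8-2, OTOA, KLC2-AS1, ENSG00000289723, PCDHA5, TFR2, ACAP3 and MATN1, and the others lay in or nearest to DZIP1L, MCTP2, MTUS2, MEDAG, OR5H6, PTPRD, FAAH and HELZ. At TRAV8-2, a T cell receptor alpha variable segment, CTCF fold was 68.4 and 44.6 in STAG2-KD and 64.9 and 46.1 in WT. It had a STAG1 peak of fold 7.53 and 3.90, and SMC1A in WT of 4.95 and 3.81. At OTOA, which encodes otoancorin of the inner ear, CTCF fold was 45.5 and 28.0, and no STAG peak and no WT SMC1A peak was listed. At TFR2, the gene of transferrin receptor 2, CTCF fold was 45.1 and 31.1. At FAAH, the gene of fatty acid amide hydrolase, CTCF fold was 42.6 and 34.7, again with no STAG and no WT SMC1A peak.

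All 16 of these sites had a WT CTCF peak in both replicates. WT SMC1A was listed at 6 of the 16 in replicate 1 and 11 in replicate 2, STAG1 at 9 and 13, and STAG2 at 3 and 11, and 3 sites (OTOA, KLC2-AS1 and FAAH) had no STAG peak in either replicate. The STAG peaks where present were weak, with folds of at most 8.98 for STAG1 and 5.71 for STAG2.

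The SMC1A-only promoter sites were those of NPAS4, TBL1X, IGHMBP2, RNU6-712P, VPS13D, RNU1-1, MTERF4 and MRPL28, and the others lay in or nearest to ENSG00000282278, PSEN2, ALK, C20orf85, DLEU7, FBXO2, HDDC2 and NFATC2. At NPAS4, a transcription factor induced by neuronal activity, SMC1A fold was 17.8 and 12.7. At TBL1X, a corepressor subunit, SMC1A fold was 15.0 and 23.4, STAG1 fold 26.8 and 16.1 and STAG2 fold 20.9 and 22.9. At IGHMBP2, a helicase, SMC1A fold was 12.9 and 16.2. RNU1-1 and RNU6-712P belong to repeated small nuclear RNA families whose reads cannot be placed with certainty.

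All 16 had a WT SMC1A peak in both replicates, and 2 in replicate 1 and 6 in replicate 2 had a WT CTCF peak, of fold at most 6.19. STAG1 was listed at 15 and 16 of them and STAG2 at 13 and 16. The core motif was found at 3 of 8 shared promoter sites, 1 of 8 shared sites elsewhere, 3 of 8 CTCF-only promoter sites, 0 of 8 CTCF-only sites elsewhere and none of the 16 SMC1A-only sites. AP-1 was found at 1 of 8 SMC1A-only promoter sites and 1 of 8 elsewhere, and at 1 of 8 CTCF-only promoter sites.

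Promoters of 6 gene lists were read against all 20098 protein-coding genes, of which 45.5% held a shared site in both replicates, 7.07% a CTCF-only site, 22.2% an SMC1A-only site, and 23.8% no CTCF or SMC1A peak in either. A gene with several starts can hold more than 1 class. The lists were chosen with earlier results of these data known and were not tested. Peaks at a promoter say nothing of the level of its transcript.

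Of 18 interferon pathway genes, 10 (55.6%) held a shared site, 1 a CTCF-only and 6 (33.3%) an SMC1A-only site. At IRF9, the DNA-binding subunit of the complex that answers type I interferon, CTCF fold was 69.4 and 41.4 and SMC1A fold 10.5 and 11.9. At CD274, which encodes PD-L1, CTCF fold was 45.1 and 32.9 and SMC1A fold 14.9 and 16.7. In strength percentile IRF9 ranked higher in CTCF (89.5 and 88.0) than in SMC1A (66.9 and 81.9), whereas CD274 ranked at 75.8 and 82.4 in CTCF and at 77.2 and 87.5 in SMC1A. IFIT1, IFIT3 and IRF7 were among the promoters with SMC1A-only sites. The IFIT1 promoter also had CTCF peaks (fold up to 6.31 and 7.09), and that of IFIT3 in replicate 2 alone (4.09). At IRF7, SMC1A fold was 4.89 and 6.12 and no CTCF peak was listed within the promoter. TYK2, a Janus kinase, held the CTCF-only site, and its strongest promoter CTCF peaks had folds of 2.87 and 2.91. The TYK2 promoter also held SMC1A peaks in both replicates, of fold up to 6.84 and 4.72.

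Of 15 melanocyte lineage genes, 10 (66.7%) held a shared and 9 an SMC1A-only site, against backgrounds of 45.5% and 22.2%, and none a CTCF-only site. At SOX10, CTCF fold was 72.1 and 42.9 and SMC1A fold 27.3 and 22.9. At MITF, the lineage's master regulator, CTCF fold was 4.64 and 3.85 and SMC1A fold 4.95 and 4.73. At DCT, a pigment enzyme, SMC1A fold was 4.12 and 5.06 with no CTCF peak. TYR and TRPM1 also held SMC1A-only sites, and the TYR promoter had CTCF of fold 4.71 in replicate 1 alone.

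Of 17 MAPK feedback genes and ERK targets, 15 (88.2%) held a shared site, none a CTCF-only and 5 (29.4%) an SMC1A-only site. At JUN, a subunit of AP-1, CTCF fold was 61.2 and 26.8 and SMC1A fold 40.5 and 25.6. DUSP6, an ERK phosphatase, kept no class in both replicates, since its SMC1A peak (fold 11.3 and 13.5) was met by a CTCF peak in replicate 2 alone, of fold 3.55. Of 15 cohesin genes and regulators, 10 held a shared, 1 (CTCF itself) a CTCF-only and 1 (MAU2, a cohesin loader) an SMC1A-only site. The CTCF and MAU2 promoters each held a shared site as well. At the STAG1 promoter CTCF fold was 93.8 and 51.4 and SMC1A fold 72.6 and 39.7, and at the STAG2 promoter CTCF fold was 87.6 and 63.8 and SMC1A fold 30.4 and 33.6.

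Of 77 ribosomal protein genes, 40 (51.9%) held a shared, 1 (RPS15A) a CTCF-only and 33 (42.9%) an SMC1A-only site. RPS15A held an SMC1A-only site as well. At RPL26, CTCF fold was 102 and 74.4 and SMC1A fold 52.3 and 39.2, while at RPL31 SMC1A fold was 8.33 and 9.87 with no CTCF peak. The CTCF-only count rested on both replicates: 12 of the 77 promoters held such a site in replicate 1 and 2 in replicate 2.

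The clustered protocadherins are 53 adhesion genes in 3 neighbouring clusters, known for CTCF sites at most of their alternative promoters. Of these, 22 (41.5%) held a shared, 10 (18.9%) a CTCF-only and 1 (PCDHGC3, 1.89%) an SMC1A-only site. At PCDHA5, CTCF fold was 38.3 and 30.5 in STAG2-KD and 45.9 and 33.3 in WT, with no SMC1A peak after knockdown and a WT SMC1A peak in replicate 2 alone, of fold 2.51. The clusters, split after the values were seen, were not alike. In the alpha cluster 14 of 15 promoters had CTCF in both replicates (median fold 17.1 and 22.7), and 2 in replicate 1 and 9 in replicate 2 had SMC1A. In the beta cluster 15 of 16 had CTCF (15.3 and 22.1), and 2 and 13 had SMC1A. In the gamma cluster 20 of 22 had CTCF (38.1 and 27.3), and 18 had SMC1A in each replicate. In replicate 1, 13 of 15 alpha and 13 of 16 beta promoters were CTCF-only, and in replicate 2, 6 and 2. From replicate 1 to replicate 2, 7 alpha and 11 beta genes went from CTCF-only to shared, against 0 gamma genes. The replicates differed in depth, size selection, tools and list threshold together, so these cannot be told apart. These genes are related paralogs, so reads can be lost or misplaced where their sequences are alike.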

How the data were processed

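Chromatin of WT and STAG2-KD M14 cells was immunoprecipitated with antibodies to CTCF, SMC1A, STAG1 and STAG2. Per the labels, the titles without a number form replicate 1 and those ending in 2 form replicate 2, and tools differ between them (Bowtie2 and MACS2 against BWA, SAMtools, Picard, MACS2, CASAVA 1.4 and deepTools in the submitters' processing notes); the study's methods name bowtie2, samtools, picard and MACS2 against input for all. Same-numbered libraries share this preparation and calling, which is where the pairing comes from. The authors deposited 1 list per library with a whole-number score, a fold enrichment (a ratio of the summit pileup to background), a −log10 p-value and a −log10 q-value. The score was not used. The STAG1 list of WT was not used here.

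From these lists, peaks on chromosomes 1 to 22 and X were kept (4.76% and 3.44% of CTCF and SMC1A peaks left out in replicate 1, 0.298% and 0.169% in replicate 2). Strength was the share of a list with a smaller −log10 p-value. Sites were placed by midpoint with GENCODE 44 on hg19. Motifs were searched 100 bp either side of the summit and in windows 5 kb to the right. Depth was worked out from the summit folds and their p-values with an assumed genome of 2.7 Gb and an assumed read extension as long as the narrowest peak. Libraries, not sites, were compared, by two-sided exact permutation tests of 2 against 2. These tests do not use the pairing of the replicates, which the replicate block does. Named sites were the 8 with the lowest sum of fractional ranks in each of 6 groups (3 classes, at promoters or not) that kept their class in both replicates; those of the gene lists are examples. The members, lists and motifs were chosen with earlier results of these data known. Analyses were run in Python 3.11.15 with numpy 2.4.6, pandas 2.3.3, scipy 1.17.1 and pysam 0.24.0, and the functions were tested on simulated data. Alternatives were a stricter and a common threshold, 50% overlap, equal list lengths, a wider promoter, a narrower motif window, a matrix in place of the core motif, a replicate block and leaving out each replicate.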

Additional observations from a re-analysis of the deposited data

Results flagged for a closer look

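Some peaks lay outside chromosomes 1 to 22 and X, on the Y chromosome, the mitochondrial genome or other contigs, in the lists used for the comparisons, and entered none of them. Leaving aside the Y chromosome they numbered 4277 for CTCF (4.60% of the list) and 3169 for SMC1A (3.34%) in replicate 1, and 293 (0.253%) and 229 (0.152%) in replicate 2.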

How the results depend on the processing

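Over 17 results, 117 alternative values were computed. Of the 83 that did not leave out a replicate, 64 were labelled unchanged, 17 moved and 2 reversed. For the 4 tested results only a change of sign was counted, whatever the size. For the others a move was a shift of at least the SD of the 2 replicates. The log2 ratio of SMC1A to CTCF peak number reversed to −0.14 at −log10 q-values of at least 5, and the change in the share of SMC1A peaks with CTCF reversed to 2.08 points in lists of equal length; both had an exact permutation p of 0.667. The change in the CTCF share kept its sign, from 2.84 points at equal length (p = 0.667, exact permutation) to 6.06 at the stricter threshold (p = 0.333). At that threshold the change in the SMC1A share was −3.51 points (p = 0.333, exact permutation), labelled unchanged because its sign was kept.

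The share of CTCF peaks that were shared moved to 94.2% in the strongest 50% and to 61.9% with summits within 200 bp, and that of SMC1A peaks to 73.3% at the stricter threshold, 67.4% at equal length and 85.4% in the strongest 50%. The gap in strength percentile moved to 44.7 points for CTCF (stricter threshold) and to 43.5 for SMC1A (50% overlap). The promoter share of shared sites moved to 25.7% (50% overlap), 24.0% (stricter) and 33.6% (2 kb promoters), and that of CTCF-only sites to 23.6% (2 kb). With a motif matrix the CTCF motif was at 37.5% of shared, 16.0% of CTCF-only and 1.14% of SMC1A-only sites, and the core motif within 50 bp was at 0.462% of SMC1A-only sites. AP-1 at SMC1A-only sites moved to 22.2% (stricter) and 21.1% (equal length), alternatives chosen after seeing the data. Beyond fewer or other peaks entering, the cause was not tested. All 34 values that leave out a replicate were the other replicate's own value, and none changed sign. With 2 replicates such a value cannot lie an SD from the mean, so only a change of sign could have been counted.

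With the replicate block (an exact sign-flip test of the paired differences) the log2 ratio stayed 0.21, and the STAG2-KD minus WT differences stayed 4.62 points for CTCF, −0.957 points for SMC1A and −4 bp for summits, each with p = 0.5, the smallest that 2 pairs allow. The block leaves these values as they are by construction, so it could change no call. Depth and the list threshold limit which weak sites are listed, so the numbers of unshared sites depend on them, and the motif and place shares describe these lists and not all binding.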
